A study of Caenorhabditis elegans with 4 samples.

Results

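The genes described here encode the enzymes that remove superoxide and peroxides in Caenorhabditis elegans. They are the superoxide dismutase genes sod-1 to sod-5, the catalase genes ctl-1 to ctl-3 and the peroxiredoxin genes prdx-2 and prdx-3. They were found by their WormBase names, and all 10 are among the 20392 genes of the count table. Total RNA was sequenced from first-stage (L1) larvae of wild type (N2 Bristol, strain GW1) and of an lsm-8 mutant (strain GW1125), with 2 libraries of each genotype. LSM-8 is the subunit that defines the nuclear LSM2-8 ring, and the study asks which transcripts differ when this ring is lost.

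In the mutant strain the lsm-8 allele xe17 carries a red marker, a myo2p::mcherry fusion, in the gene on chromosome IV. It is kept over nT1[qIs51](IV;V), a balancer chromosome with a green marker, and the labels give the sorted mutant larvae as lsm-8-/-. Larvae of both genotypes hatched over 16 hours in buffer without food, were sorted as non-green animals of L1 size and were fed for 2.5 hours before RNA was taken. The wild-type strain carries neither the allele nor the balancer. The labels do not say whether the replicate libraries stem from separate cultures, and p-values here thus cover the spread between libraries, which could be technical only.

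Superoxide dismutases turn superoxide into hydrogen peroxide and oxygen, with copper and zinc or with manganese in the active site. Catalases, which are haem enzymes, and peroxiredoxins, which use reactive cysteines and are reduced again by thioredoxin, then remove the peroxide. In worms this set is known for its link to insulin signalling, since the transcription factor DAF-16 raises sod-3 and several other members when that signal is low, as in fasting larvae and dauers.

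Library totals ran from 50755251 to 101230177 counts, with 1.83 times as many counts in an average mutant library as in an average wild-type one. Levels are given as CPM, the share of a gene in its library scaled up in the usual way, after TMM scaling (a scaling by the genes that differ least), and between genes as CPM per kilobase of gene length. The targeted gene lsm-8 stood at 15.4 and 15.9 CPM in wild type and at 3.25 and 3.73 CPM in the mutant. Markers of germ cells had summed levels of 90.3 to 93.5 CPM in wild type and 89.7 to 90.4 CPM in the mutant, with 0 of 3 tested markers called. Of 5 lists of somatic markers, body wall muscle had 4 of 6 tested called higher, pharynx 3 of 4, intestine 2 of 6, neurons 4 of 7 and epidermis 2 of 4, and no marker of these lists was called lower. Over all 16771 tested genes 13.5% were called higher and 14.8% lower. Several of these markers are long, and of genes of 2537 bases or more and 5 CPM or more 29.0% were called higher. The part of length in these counts was not tested. Summed body wall muscle markers were at 10395 and 10489 CPM in wild type and at 12423 and 12730 CPM in the mutant. The largest change in these lists, singled out after its values were seen, was that of the intestine marker elt-2 (log2 fold change 1.56, adjusted p = 1.05e-09). The other called intestine marker, ges-1, had 0.35 (adjusted p = 0.0025), and 4 were not called. Summed intestine markers overlapped, at 2322 and 2374 CPM in wild type and 2470 and 2355 CPM in the mutant. The part of these marker differences in the results that follow was not tested. Genes of adults, oocytes and sperm, which sorted L1 larvae should lack, summed to 8.63 to 10.03 CPM in all libraries. Most of this sum was rme-2, at 5.90 and 5.62 CPM in wild type and 6.52 and 7.06 CPM in the mutant, which was not called. Of 4 tested genes of that list, vit-2 (log2 fold change 1.32, adjusted p = 0.0031) and vit-6 (0.86, adjusted p = 0.00998) were called higher from levels under 1 CPM and spe-9 was called lower (-1.44, adjusted p = 7.70e-05).

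The antioxidant genes spanned a wide range of levels. In wild type prdx-2 stood highest, at 624 ± 17.3 CPM per kilobase (SD, n = 2), which is above 99.1% of the 16771 genes tested. The cytosolic dismutase gene sod-1 (167 ± 20.5) and the mitochondrial peroxiredoxin gene prdx-3 (151 ± 6.43) followed, and their wild-type libraries overlapped. Below them came sod-2 (61.0 ± 0.195), ctl-2 (40.3 ± 0.503) and sod-4 (30.1 ± 1.07), with no overlap between neighbours. Then came a group of scarce transcripts, with sod-5 at 2.35 ± 0.417, sod-3 at 1.80 ± 0.413 and ctl-3 at 0.355 ± 0.0538 CPM per kilobase. The libraries of sod-5 and sod-3 overlapped in this order, and those of sod-3 and ctl-3 did not.

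**Figure D1:**
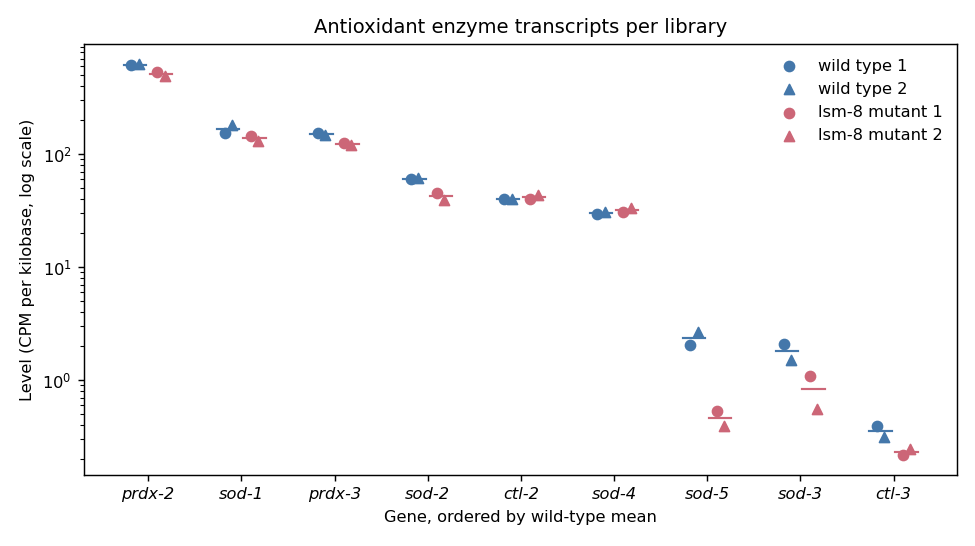
Level of each antioxidant transcript in CPM per kilobase (log scale) in the 2 wild-type (blue) and 2 lsm-8 mutant (red) libraries, with a line at each group mean; ctl-1, listed at 0, is not drawn. The mutant points lie below both wild-type points for 7 genes and overlap with them for sod-4 and ctl-2.

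In the mutant 6 of the 9 genes that passed the filter on low counts fell, 0 rose and 3 were not called (edgeR quasi-likelihood test, Benjamini-Hochberg adjusted p under 0.05 over all tested genes). The genes that fell were sod-1, sod-2, sod-3, sod-5, prdx-2 and prdx-3. For comparison, 28.2% of the 16771 tested genes were called in the same test, 14.8% lower in the mutant and 13.5% higher. The median log2 fold change (mutant over wild type) of the 9 genes was -0.31, against -0.007 for all tested genes. Both mutant libraries lay below both wild-type libraries for 7 of the 9, where 31.9% of all tested genes did so. No other test of the group as a whole was made, and the median leaves out ctl-1, which was not tested. In RNA from whole larvae, fewer cells of a type and less RNA per cell cannot be told apart.

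The cytosolic copper/zinc dismutases are encoded by sod-1 and sod-5. Transcripts of sod-1 (WBGene00004930, chromosome II), the main dismutase of the cytosol, stood at 112 and 133 CPM in wild type and at 106 and 96.0 CPM in the mutant. All 4 values are close, and the higher mutant library was just under the lower wild-type library. The fall was to 82.6% of wild type (log2 fold change -0.28, SE 0.08, edgeR adjusted p = 0.0145), about the size of the difference between the wild-type libraries (-0.25 on the log2 scale, replicate 1 over replicate 2). It was not called without wild-type replicate 2 (log2 fold change -0.15, adjusted p = 0.151), after a correction for gene length (-0.19, adjusted p = 0.0857) or with the replicate number as a block (-0.27, adjusted p = 0.0596).

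The gene sod-5 (WBGene00007036, chromosome II) encodes a minor cytosolic enzyme known to be raised in dauer larvae. It had the largest fall of the set. Its counts of 72 and 87 in wild type, 1.35 and 1.74 CPM, compared with 36 and 24 counts in the deeper mutant libraries, 0.351 and 0.259 CPM. The groups were far apart. Exact Poisson 95% intervals, which cover counting error only, ran from 1.06 to 2.14 CPM over the wild-type libraries and from 0.166 to 0.486 CPM over the mutant libraries. The mutant was left with 19.9% of the wild-type level (log2 fold change -2.33, SE 0.29, adjusted p = 5.69e-06), which put sod-5 in the lowest 0.155% of log2 fold changes of all tested genes.

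The mitochondrial manganese dismutases are encoded by sod-2 and sod-3. The gene sod-2 (WBGene00004931, chromosome I) gives the abundant constitutive enzyme. It stood at 52.9 and 53.2 CPM in wild type and at 39.3 and 34.5 CPM in the mutant, with a gap between the groups that was wider than the spread within either. It fell to 69.6% of wild type (log2 fold change -0.52, SE 0.07, adjusted p = 1.27e-05), and its log2 fold change stayed between -0.62 and -0.44 in all alternative settings.

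The gene sod-3 (WBGene00004932, chromosome X) is the inducible manganese dismutase and a much used reporter of DAF-16 activity. Its transcripts were scarce here, with 93 and 63 counts (1.75 and 1.26 CPM) in wild type and 94 and 43 counts (0.917 and 0.463 CPM) in the mutant. The groups did not overlap, but the mutant libraries differed from each other by 0.98 on the log2 scale, and their Poisson intervals, 0.741 to 1.12 and 0.335 to 0.624 CPM, did not meet. Levels fell to 46.2% of wild type (log2 fold change -1.11, SE 0.30, adjusted p = 0.00917). Without mutant replicate 2 the log2 fold change was -0.72 and was not called (adjusted p = 0.0654), and without mutant replicate 1 it was -1.70. In the WBcel235 annotation its exons, 881 bases, share 89 bases with exons of opposite-strand genes. The deposited width is 833 bases, so the shared part of the counted bases is not known. The use of strand in the counting is not given in the sources used here.

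As a share of the manganese dismutase level per length, sod-3 made up 3.33% and 2.41% in wild type and 2.38% and 1.38% in the mutant. The exact two-sided permutation test of this share gave p = 0.3333, the smallest p that 2 against 2 allows. Summed as 1 row of the count table, sod-2 and sod-3 fell to 68.9% of wild type (log2 fold change -0.54, SE 0.07, adjusted p = 1.11e-05), nearly the value of sod-2 alone.

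The gene sod-4 (WBGene00004933, chromosome III) encodes the extracellular copper/zinc dismutase, made as a secreted and a membrane-bound form. It stood at 30.9 and 32.5 CPM in wild type and at 32.4 and 35.1 CPM in the mutant, so the groups overlapped. Its log2 fold change of 0.09 (95% interval -0.05 to 0.24, adjusted p = 0.364) was not called. In the WBcel235 annotation its exons, 1306 bases, share 175 bases with exons of ctr-9 on the opposite strand. The deposited width is 1051 bases, so the shared part of the counted bases is not known here either. With sod-1 and sod-2 lower and sod-4 not called, sod-4 made up 11.9% and 11.1% of the summed dismutase level per length in wild type and 13.8% and 16.3% in the mutant, while sod-2 went from 24.6% and 21.98% to 20.3% and 19.3% (exact permutation p = 0.3333 for each). All 5 dismutase genes summed as 1 row fell to 82.2% of wild type (log2 fold change -0.28, SE 0.06, adjusted p = 0.00212).

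The 3 catalase genes lie next to each other on chromosome II in the order ctl-2, ctl-1, ctl-3, all on the same strand. The peroxisomal catalase gene ctl-2 (WBGene00000831) held nearly all counted catalase reads, with 66.5 and 65.3 CPM in wild type and 66.4 and 70.9 CPM in the mutant. The groups overlapped, and the log2 fold change of 0.06 was not called (adjusted p = 0.528). Its 95% interval, -0.07 to 0.19, does not reach the fall of sod-2 (interval -0.67 to -0.38) or that of prdx-3 (-0.43 to -0.18). The difference between these genes was not itself tested.

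Transcripts of ctl-3 (WBGene00013220) were near the lower limit of the data, with 33 and 25 counts in wild type and 35 and 36 in the mutant. As levels these were 0.620 and 0.4997 CPM against 0.341 and 0.388 CPM, with both mutant libraries lower. The log2 fold change of -0.62 was not called, and its interval was wide, from -1.38 to 0.14 (adjusted p = 0.225), so that at this depth neither a fall to 65.1% of wild type nor no change can be set aside.

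The cytosolic catalase gene ctl-1 (WBGene00000830) is listed at 0 counts in all 4 libraries. Taken at its face, 0 counts would allow at most 0.0551 and 0.0591 CPM in wild type and 0.0296 and 0.0331 CPM in the mutant, at 3 counts. These limits are per library total, without the TMM scaling of the other levels. The zero cannot be read as absence of the transcript. Of the 455 genes listed at 0 in every library, 184 (40.4%) share their gene name with another gene of the table, as duplicated copies do, against 11 of the other 19937 (0.0552%). The catalase genes are also close copies of each other, but ctl-1 shares no name, and whether reads that match more than 1 catalase gene were left out of the counts was not tested. The level of ctl-1, and the part of ctl-2 and ctl-3 that it might add, are therefore not known from this table. Summed over the counted catalase genes, the log2 fold change was 0.05 (interval -0.07 to 0.18, adjusted p = 0.564).

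The peroxiredoxin genes of this set, prdx-2 and prdx-3, moved by like amounts. A further peroxiredoxin gene, prdx-6, was not called and is described below with the thioredoxin system. The cytosolic gene prdx-2 (WBGene00006434, chromosome II), whose enzyme guards against and relays hydrogen peroxide signals, stood at 536 and 558 CPM in wild type and at 465 and 432 CPM in the mutant. The groups were separate, and the fall was to 82.1% of wild type (log2 fold change -0.29, SE 0.06, adjusted p = 0.00117). The mitochondrial gene prdx-3 (WBGene00011110, chromosome III) stood at 120.4 and 113 CPM in wild type and at 96.4 and 92.5 CPM in the mutant, again without overlap. It fell to 80.8% of wild type (log2 fold change -0.31, SE 0.06, adjusted p = 0.000602). The share of prdx-3 in the summed level per length of prdx-2 and prdx-3 was 20.3% and 18.8% in wild type and 19.05% and 19.6% in the mutant, where the groups overlapped (exact permutation p = 1). As a summed row prdx-2 and prdx-3 fell to 81.8% of wild type (log2 fold change -0.29, SE 0.06, adjusted p = 0.000958).

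**Figure D2:**
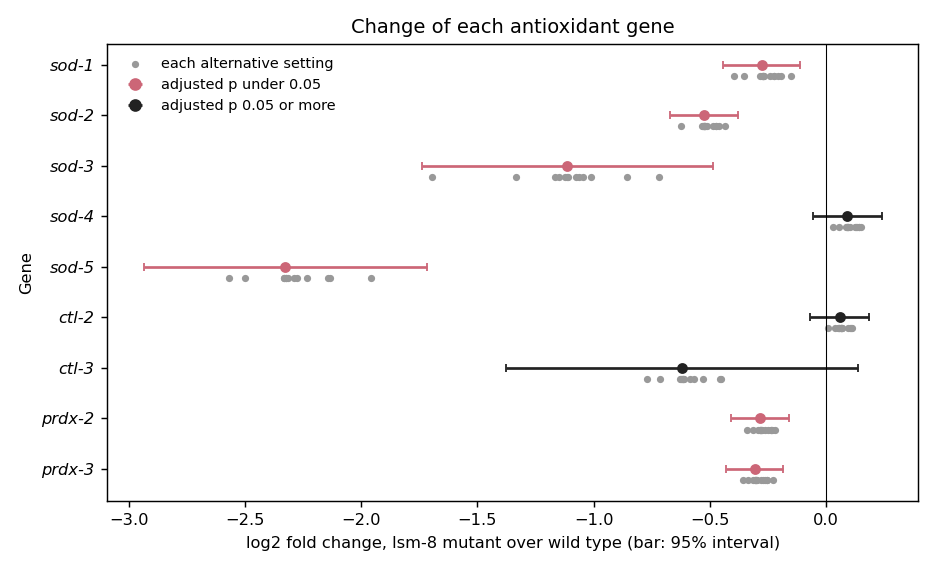
Log2 fold change of each antioxidant gene, mutant over wild type, with its 95% interval from the edgeR fit (red where the adjusted p was under 0.05, black otherwise) and, as small grey points, its value in each alternative setting. The values of sod-5 and sod-3 lie farthest to the left, and every grey point lies on the same side of 0 as its main value.

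Where falls were unequal, the separation between neighbouring genes differed between the genotypes. In the mutant sod-2 (42.4 ± 3.92 CPM per kilobase) and ctl-2 (41.9 ± 1.95) overlapped, while in wild type sod-2 had been above ctl-2 in both libraries. Among the scarce genes, sod-3 and sod-5 had overlapped in wild type, while in the mutant sod-3 (0.828 ± 0.385 CPM per kilobase) was above sod-5 (0.464 ± 0.0995) in both libraries. The gap was narrow, with sod-3 at 0.556 in mutant replicate 2 and sod-5 at 0.534 in mutant replicate 1. These values rest on only 43 and 36 counts. The leading genes kept their order, prdx-2 (512 ± 26.8), sod-1 (138 ± 10.1) and prdx-3 (122 ± 3.59), now without overlap between neighbours.

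Fold changes varied with gene length among genes of 5 CPM or more, and so did the calls in this set. Both mutant libraries were also deeper than both wild-type libraries, so genotype and depth cannot be told apart in this trend. Among 9621 genes (mean level of 5 CPM or more) placed in 5 length classes, the median log2 fold change was -0.11 in the shortest class (up to 916 bases), where 28.5% were called lower and 10.1% higher. In the longest class (2537 bases or more) it was 0.06, with 11.9% called lower and 29.0% higher. All 6 antioxidant genes that fell are of the length of the shortest class, from 657 bases for sod-5 to 877 for prdx-2, and the 3 tested genes that were not called, sod-4 (1051 bases), ctl-3 (1575) and ctl-2 (1637), are longer. After a correction of each library for its trend over length, 5 of the 6 were still called lower. Of all 16771 tested genes, 4525 were called with this correction, 2237 of them lower. Log2 fold changes were then -0.46 for sod-2 (adjusted p = 8.73e-05), -1.05 for sod-3 (0.0174), -2.23 for sod-5 (4.26e-05), -0.22 for prdx-2 (0.00503) and -0.23 for prdx-3 (0.00468), while sod-1 was not called. The median of the 9 genes went from -0.31 to -0.23.

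**Figure D3:**
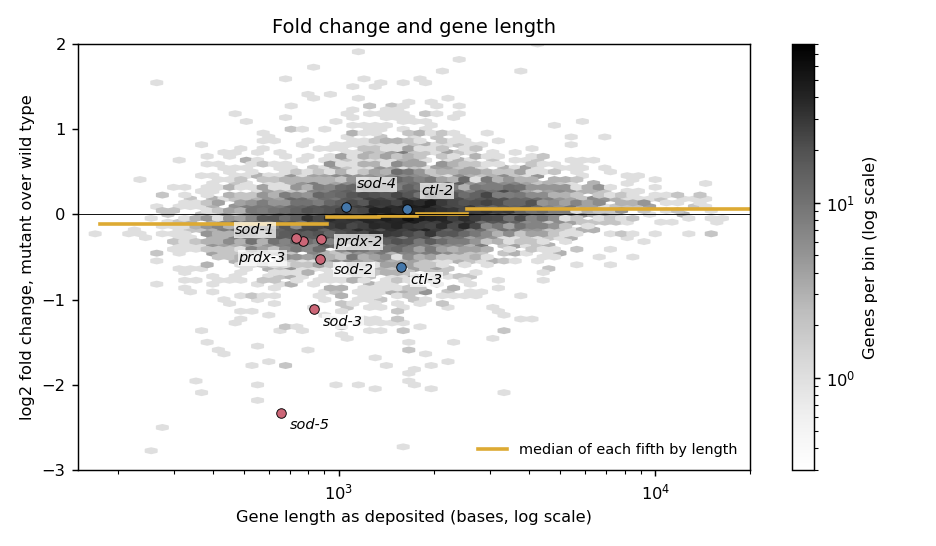
Log2 fold change (mutant over wild type) against deposited gene length on a log scale for the 9621 genes of 5 CPM or more on average (grey, 21 genes lie outside the axes), with the median of each length class (yellow) and the antioxidant genes (red if called, blue if not; sod-3, sod-5 and ctl-3 are below 5 CPM). The class medians climb from -0.11 to 0.06, and sod-2, sod-3 and sod-5 lie well under the median of the shortest class.

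Thioredoxin reduces peroxiredoxins again, and glutathione serves a parallel set of reductases and peroxidases. Of 25 tested genes of these systems, 10 fell, 2 rose and 13 were not called, with a median log2 fold change of -0.22, against 14.8% lower and 13.5% higher over all tested genes. Of these genes 16 are no longer than the shortest length class. In that class 28.5% of genes of 5 CPM or more were called lower and 10.1% higher. Of the 16, some of them below 5 CPM, 5 fell and 2 rose. The part of length in this count was not tested. The glutathione reductase gene gsr-1, which in worms also serves mitochondria, fell from 249 and 232 CPM to 164 and 170.0 CPM, or -0.53 on the log2 scale (SE 0.06, adjusted p = 1.02e-06). The glutathione peroxidase family gene gpx-7 had the largest fall, from 5.88 and 5.22 CPM to 3.33 and 3.28 CPM (-0.75, SE 0.13, adjusted p = 0.000252). In the other direction gpx-3 rose from 19.6 and 22.4 CPM to 35.2 and 39.1 CPM (0.82, SE 0.08, adjusted p = 2.67e-07), and the thioredoxin gene trx-3 rose by 0.30 (SE 0.09, adjusted p = 0.0172).

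The partners of the mitochondrial peroxiredoxin, singled out after their values were seen, had log2 fold changes somewhat smaller than that of prdx-3. The mitochondrial thioredoxin gene trx-2 fell (-0.22, SE 0.07, adjusted p = 0.0311), and its reductase gene trxr-2 had -0.22 (SE 0.09, adjusted p = 0.0663) and was not called. Singled out in the same way, the cytosolic reductase gene trxr-1 had 0.04 (SE 0.06, adjusted p = 0.698), and the remaining peroxiredoxin gene, prdx-6, had -0.01 (SE 0.09, adjusted p = 0.924), neither of them called.

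NADPH oxidases and haem peroxidases make reactive oxygen or use peroxide, in part outside the cell. Of 11 tested genes of this list, 2 rose, 0 fell and 9 were not called, with a median of 0.09. Over all tested genes 28.2% were called, and with 11 genes the count cannot be told apart from that share. One of the 2, mlt-7, has 2578 bases and is of the longest length class, where 29.0% were called higher. The part of length in this count was not tested. The cuticle peroxidase gene mlt-7 rose from 76.2 and 79.4 CPM to 98.5 and 103 CPM (0.37, SE 0.06, adjusted p = 9.90e-05) and memo-1, which acts with the oxidase BLI-3, rose by 0.18 (SE 0.07, adjusted p = 0.0472).

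Cofactor supply changed in both directions. Among 13 genes of metal and haem supply, 4 rose, 4 fell and 5 were not called (median -0.009). Over all tested genes 13.5% were called higher and 14.8% lower. Haem, the cofactor of catalase, is moved into and out of the gut by HRG proteins, and hrg-4 rose from 3.30 and 2.58 CPM to 8.98 and 8.82 CPM, or 1.59 on the log2 scale (SE 0.13, adjusted p = 2.80e-08). The gene hrg-3, whose product carries haem out of the mother's gut, rose from 0.601 and 0.280 CPM to 2.56 and 2.18 CPM (2.41, SE 0.27, adjusted p = 1.49e-06). The metallothionein gene mtl-1 fell from 20.7 and 23.3 CPM to 9.12 and 8.02 CPM (-1.36, SE 0.09, adjusted p = 3.11e-09), and the ferritin gene ftn-1 from 28.1 and 28.8 CPM to 11.02 and 11.4 CPM (-1.34, SE 0.08, adjusted p = 3.21e-10). The copper chaperone gene cuc-1, singled out after its values were seen, fell by 0.42 on the log2 scale (SE 0.08, adjusted p = 0.000543). Singled out in the same way, cua-1 of the same list had -0.009 (SE 0.06, adjusted p = 0.933) and was not called. Of the 13 genes, 7 are no longer than the shortest length class, and of these 3 fell and 2 rose. The part of length in this list was not tested.

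Targets of DAF-16 other than the antioxidant genes were mostly lower. Of 13 tested genes, 11 fell, 1 rose and 1 was not called, against 14.8% lower and 13.5% higher over all tested genes. The median log2 fold change was -1.34. These falls were known from these data when the list was written, and mtl-1 and ftn-1 are also in the list of metal and haem supply. Of the 13 genes, 7 are no longer than the shortest length class, and all 7 fell, of which hsp-12.6 is below 5 CPM. In that class 28.5% of genes of 5 CPM or more were called lower. The part of length in this list was not tested. The small heat shock genes hsp-16.41 and hsp-16.2 had log2 fold changes of -4.01 (SE 0.11, adjusted p = 2.78e-14) and -3.61 (SE 0.19, adjusted p = 0.000123), and the lysozyme gene lys-7 rose from 67.0 and 72.1 CPM to 138 and 139 CPM (0.99, SE 0.06, adjusted p = 4.54e-10). The falls of sod-5 and sod-3 lie within the range of this list, and those of sod-1, sod-2, prdx-2 and prdx-3 are smaller than each of its 11 called falls.

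Of 20 tested regulators of antioxidant genes, 3 rose, 7 fell and 10 were not called (median -0.05), against 13.5% higher and 14.8% lower over all tested genes. The transcript of daf-16 rose from 47.5 and 52.8 CPM to 85.5 and 76.4 CPM, or 0.69 on the log2 scale (SE 0.07, adjusted p = 4.95e-07). The kinase genes akt-1 (-0.71, SE 0.05, adjusted p = 1.30e-08) and akt-2 (-0.54, SE 0.06, adjusted p = 6.16e-07), whose products keep DAF-16 out of the nucleus, fell. The gene hlh-30, a regulator of lysosomes and of stress resistance, rose (0.62, SE 0.06, adjusted p = 2.51e-07). Both daf-16 (4408 bases) and hlh-30 (3015 bases) are of the longest length class. In that class 29.0% of genes of 5 CPM or more were called higher and 11.9% lower. The part of length in these rises was not tested. The oxidative stress regulator gene skn-1, singled out after its values were seen, had 0.17 (SE 0.06, adjusted p = 0.0518) and was not called.

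Targets of SKN-1, another regulator of antioxidant genes, had no common direction, with 4 of 13 higher, 4 lower and 5 not called (median 0.04). The shares over all tested genes were 13.5% higher and 14.8% lower. The glutathione S-transferase gene gst-38 (log2 fold change 1.73, SE 0.11, adjusted p = 8.75e-10) and the dehydrogenase gene dhs-8 (0.93, SE 0.18, adjusted p = 0.000832) rose, and the glucuronosyltransferase gene ugt-11 (-0.85, SE 0.07, adjusted p = 1.30e-08) and gst-10 (-0.58, SE 0.09, adjusted p = 0.000216) fell. Among the peroxins, which build the peroxisome where CTL-2 works, 2 of 11 rose, 1 fell and 8 were not called (median 0.06), close to the 28.2% called over all tested genes. They were prx-11 (0.75, SE 0.11, adjusted p = 4.21e-05), prx-12 (0.46, SE 0.10, adjusted p = 0.00146) and prx-2 (-0.39, SE 0.12, adjusted p = 0.0186).

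**Figure D4:**
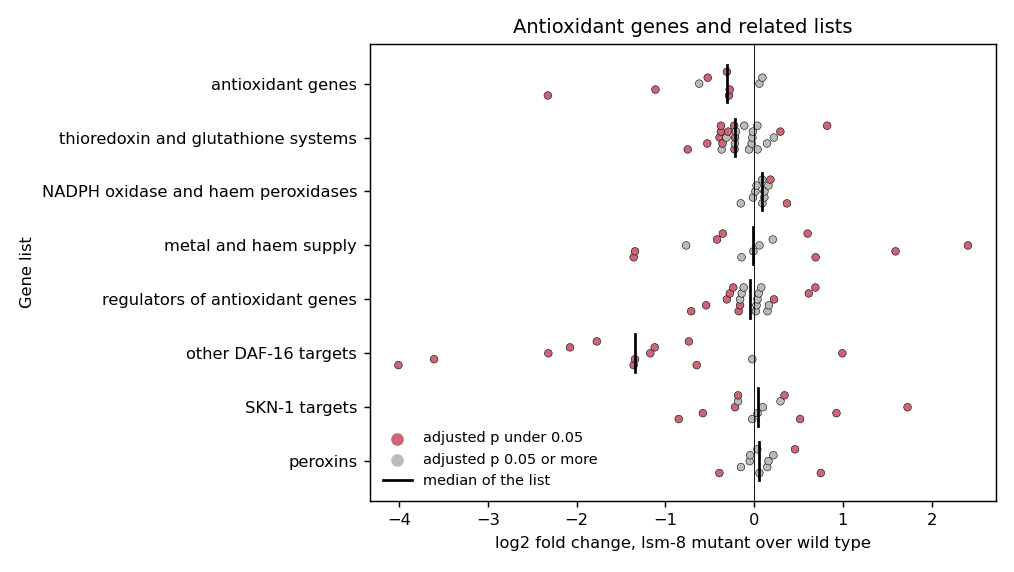
Log2 fold change, mutant over wild type, of each tested gene in the antioxidant set and in 7 related lists (red if called, grey if not; black bars are medians). The median is -0.31 for the antioxidant genes, -0.22 for the thioredoxin and glutathione systems and -1.34 for the other DAF-16 targets, and between -0.05 and 0.09 for the remaining lists. The list of DAF-16 targets was written with its falls known.

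The genes whose pattern over the 4 libraries was closest to that of sod-5, the member with the largest fall, were col-130, asns-2, lsm-8, nceh-1 and pud-4. Likeness was the root mean square distance of log2 CPM from each gene's own mean over the 4 libraries, among 6370 named genes whose mean level was 5 CPM or more. It ran from 0.188 for col-130 to 0.245 for pud-4, and these genes had log2 fold changes of -1.99 to -2.17. No member rose, so no such search was made for a rise.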

How the data were processed

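Gene-level counts of total RNA from 2 wild-type and 2 lsm-8 mutant libraries were analysed. The deposited raw count table holds whole-number read counts per gene and a gene width, used as length. The authors' second table holds log2 values, which equal the log2 of the count scaled to the mean library total, plus 8 (largest deviation 5.3e-14). Single reads of 50 bases came from a stranded kit, per the labels' protocols. The submitters' processing notes name Bowtie, edgeR 3.24.0 and build ce10, with no roles. How reads were counted, with several matches or by strand, is not given in the sources used here. Names (19182 of 20392 genes), chromosomes and overlaps came from WBcel235, another build, so no coordinate is printed.

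All genes were tested with edgeR 4.0.16 (R 4.3.3): TMM, filterByExpr, robust quasi-likelihood F-test, adjustment over 16771 genes, threshold 0.05, standard errors from F. Alternatives used DESeq2 1.42.0, limma 3.58.1 (voom, and the deposited log2 values), other scalings and filters, a lowess correction for length, a replicate block and leaving out each library. Named genes are all members, lsm-8, the 2 largest called rises and falls per list, and the genes most like a member, with the text saying where others were singled out. The members and lists were chosen with earlier results of these data known. Replicates differed by more than sampling noise (chi-square per degree of freedom 9.25 and 15.7). On simulated counts of 16771 genes for this comparison, the test recovered 59.7% of 67 genes changed 1.5-fold. It recovered 83.6% of 67 genes at 2-fold and 92.4% of 66 at 4-fold, with 5 false calls. Far fewer genes were changed there than were called in the data, and the simulated spread followed a trend over level only. Recovery and false calls in the real comparison could thus differ.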

Additional observations from a re-analysis of the deposited data

How the results depend on the processing

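In each alternative that gave a fold change, tested members and summed families kept the direction of that change. The crossed block gave only counts of calls, summed families were not fitted on the deposited log2 values, and sod-3, sod-5 and ctl-3 were not tested with the filter of 5 CPM. The fall of sod-1 was not called with the replicate block (log2 fold change -0.27), with the correction for gene length (-0.19) or without wild-type replicate 2, and its value ran from -0.40 to -0.15 when 1 library was left out. That of sod-3 was not called without mutant replicate 2, with values from -1.70 to -0.72 when 1 library was left out. Between 4 and 6 members were called lower in every setting, 4 when a gene needed 5 CPM in 2 libraries, since sod-3 and sod-5 (and ctl-3) were then not tested. With that filter 4003 of 9728 tested genes were called, 1980 of them lower. Calls over all genes numbered 4737, and from 3655 with the replicate block to 4827 with library totals in the planned settings with all libraries. With library totals 60.5% of calls were higher, against 47.7% with TMM, 56.6% with upper quartile scaling and 60.7% with the deposited log2 values. The replicate numbers pair nothing in the labels, and the replicate differences of the 2 groups correlated at -0.106 over 9621 genes. The crossed block, chosen after seeing the data, called 5652 genes and 6 members, and apart from sod-1 the block as numbered changed no call of a member or family. The shares of sod-1 among dismutases and of prdx-3 in the sum of prdx-2 and prdx-3, mutant minus wild type, were 0.918 and -0.237 percentage points. With 1 library left out they ran from -0.867 to 2.70 and from -1.02 to 0.544, with signs turned without wild-type replicate 1 and, for prdx-3 (0.0167), without mutant replicate 1. The share of sod-5 among the copper/zinc dismutases differed by -0.902 points per length and by -0.764 points from counts. The cause of these differences was not tested. Counts under 100 a library limit sod-3, sod-5 and ctl-3.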
